A study of Homo sapiens with 16 samples.

Results

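RAB39B, RRAD, LGR5, KLHL14, KCNJ16 and GPRIN3 are 6 of the 25369 genes counted in this study, chosen because their mRNA moved far when a PPM1D inhibitor was added to an MDM2 inhibitor in TPC1 cells. They were chosen by the measured difference between the drug combination and nutlin alone, or the interaction of both drugs, in TPC1. Genes on the ATF4 and p53 target lists in use were left out. Absence from these lists does not show that a gene is no target. RAB39B and RRAD were chosen as higher, and the other 4 as lower. All TPC1 values of these genes are therefore a description and carry no test, whereas K1 values were not used in the choice and were tested.

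Both lines come from human papillary thyroid carcinomas and keep wild type p53, and no engineered allele is given for either. Cells of each line received vehicle (0.2% DMSO), 10 µM nutlin (Nutlin-3a), 25 µM GSK2830371, or both compounds, for 24 h. Each of these 8 groups has 2 libraries of stranded poly(A)-enriched RNA, 16 in all. Nutlin keeps MDM2 from binding p53, and GSK2830371 blocks PPM1D, a phosphatase that restrains p53 signaling, so the design asks what loss of the second repressor adds to loss of the first.

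The 6 genes belong to different cellular systems. RAB39B is a small GTPase of vesicle traffic and autophagy that works with the C9orf72 complex, and RRAD is a GTPase of the RGK family that binds calcium channel beta subunits and lowers calcium entry. LGR5 is a receptor for R-spondins, ligands that raise WNT signaling, and marks stem cells in several epithelia. KLHL14 is a BTB-Kelch protein, a class that brings substrates to the CUL3 ubiquitin ligase, and it is expressed in the thyroid. KCNJ16 encodes Kir5.1, an inward rectifier potassium channel subunit that joins KCNJ10 or KCNJ15 in a working channel, and GPRIN3 binds activated G protein alpha subunits.

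Library totals were 30789887 to 76648552 counts in TPC1 and 28888686 to 37161241 in K1. The TPC1 libraries are named by the numbers 1 and 3 of their columns, of which those numbered 3 were matched to a treatment only. CDKN1A, the p53-induced inhibitor of cyclin-dependent kinases, rose with nutlin by 5.61 ± 0.141 (SE) on the log2 scale in TPC1 and by 3.16 ± 0.0613 in K1. Of 8 markers of thyroid follicular cells, 4 reached 1 CPM (1 count per 1000000 counts of the library) in each line, PAX8 among them, whereas TSHR stayed under 0.1 CPM on average in both lines. Of 3 leukocyte genes, PTPRC and CD3E were also under 0.1 CPM, whereas CD68, a lysosomal protein gene used as a macrophage marker, had 34.2 to 71.7 CPM in TPC1 and 54.8 to 75.5 in K1. In bulk RNA of this kind, fewer cells expressing a gene and less of its RNA per cell cannot be told apart.

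In TPC1, RAB39B and RRAD were highest in the drug combination, while LGR5, KLHL14, KCNJ16 and GPRIN3 were lowest there. In all 6 genes the 2 combination libraries lay outside the range of the other 6 libraries. The difference between the combination and nutlin was 3.97 ± 0.249 (log2, SE) for RAB39B, the 20th highest of 15273 genes tested in TPC1. KLHL14, GPRIN3 and KCNJ16 differed by -3.35 ± 0.168, -3.13 ± 0.546 and -2.59 ± 0.128, the 23rd, 37th and 60th lowest. For RRAD this difference was 1.24 ± 0.154, the 548th highest, and RRAD met the rule by its interaction. That interaction, the extra effect of the combination beyond the sum of both single drugs on the log2 scale, was 2.70 ± 0.334 and 130th highest. For the other 5 genes the interaction was 2.25 ± 0.382 (RAB39B), -2.24 ± 0.215 (KLHL14), -2.33 ± 0.173 (KCNJ16), -3.15 ± 0.678 (GPRIN3) and -3.41 ± 0.917 (LGR5), of which the last depends on the prior count because the combination held almost no LGR5 reads.

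To be called, a gene needed more than a 1.5-fold difference and an adjusted p under 0.05 in the quasi-likelihood test of edgeR, with p-values adjusted by Benjamini-Hochberg over all genes tested in a line. All 6 genes passed the filter on low counts in both lines. By their choice, 6 of 6 passed these thresholds for the combination against nutlin in TPC1, where 12.1% of all genes did, and 5 of 6 for the interaction, where 6.32% did. LGR5 missed the second in the fit used here and passed with a replicate block, when 1573 genes passed in place of 965. It also passed with scaling by library size alone and without the filter on low counts. As LGR5 was chosen by these values, neither outcome is a test. The other TPC1 comparisons share libraries with the rule, so their counts are a description too, at 6 of 6 for the combination against DMSO (44.2% of all genes) and against GSK2830371 (38.5%) and 3 of 6 for nutlin alone (35.5%).

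**Figure D1:**
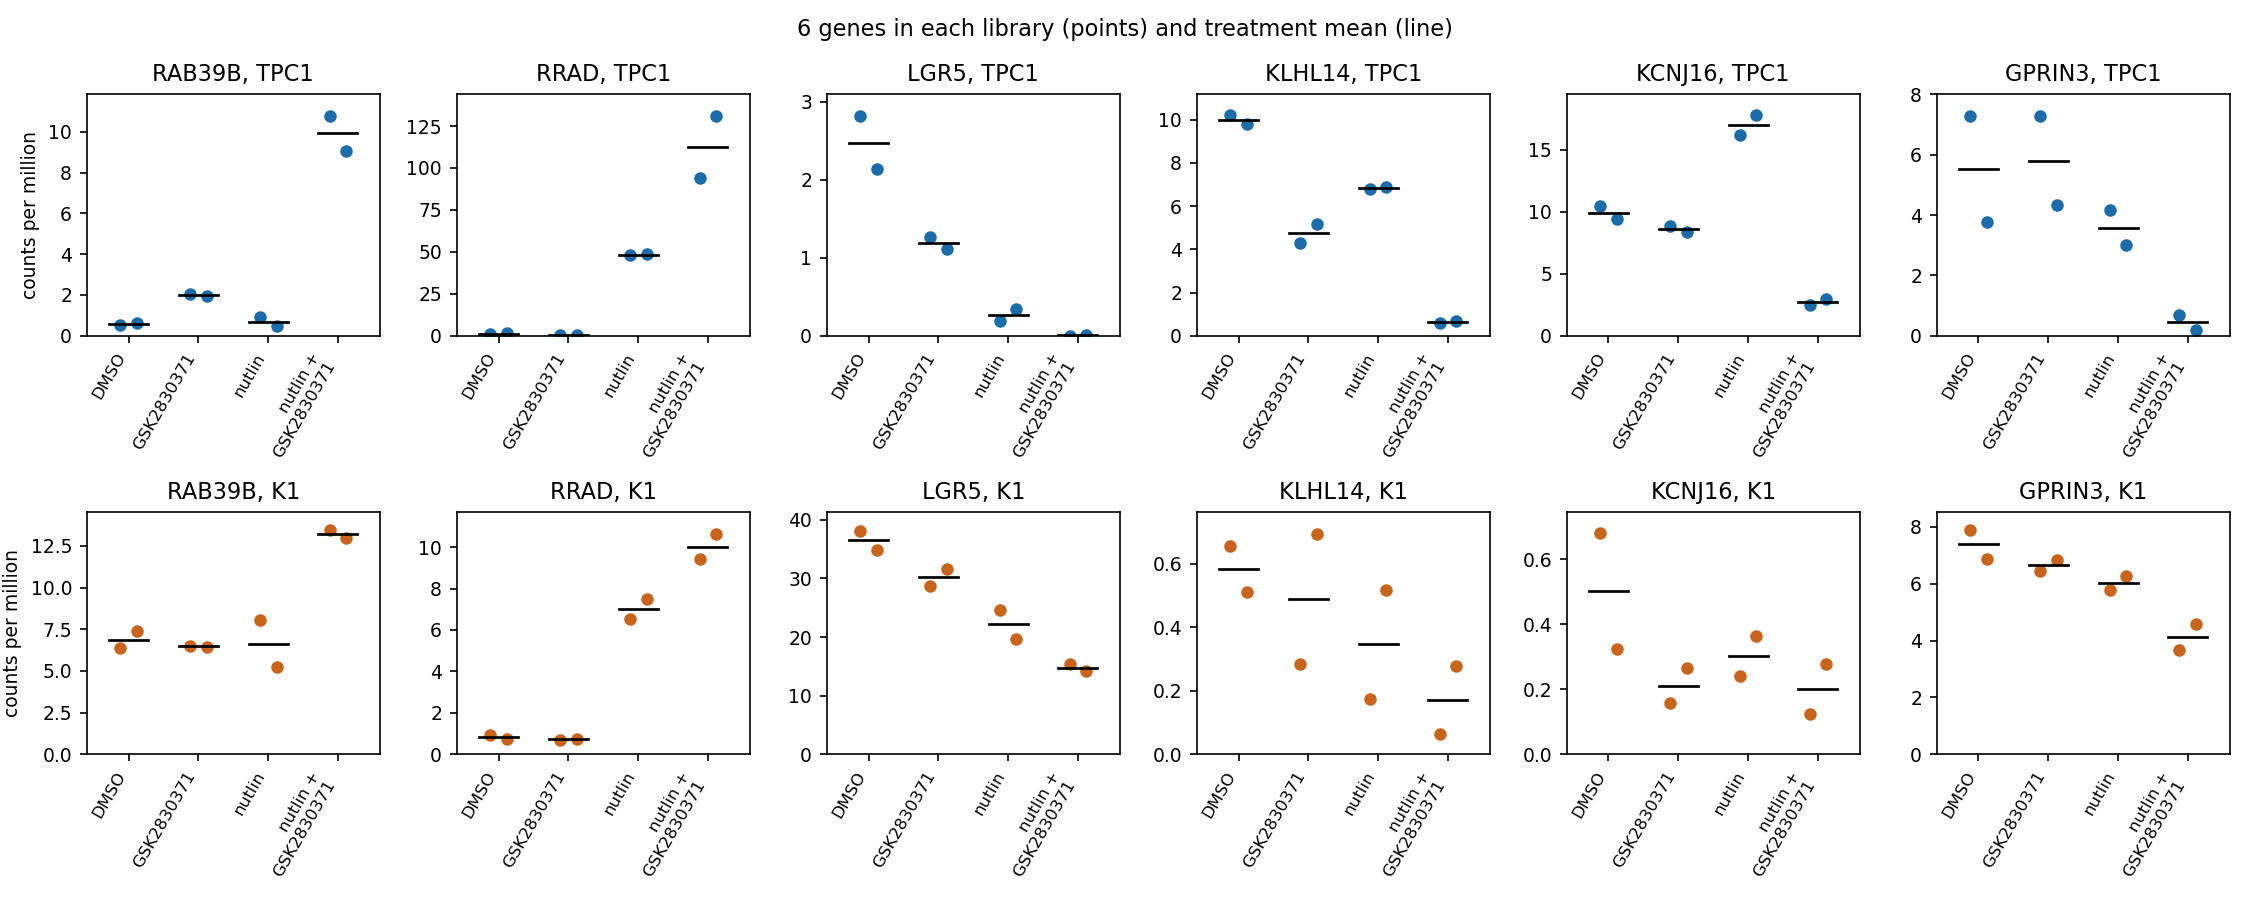
CPM of the 6 genes in every library, with TPC1 in the upper row and K1 in the lower row; points are libraries, black lines are treatment means, and each panel has its own linear axis from 0. In TPC1 the combination libraries are the highest for RAB39B (10.8 and 9.05 CPM) and RRAD (94.1 and 131 CPM) and the lowest for the other 4 genes.

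RAB39B lies on chromosome X (154487520 to 154493776, minus strand, GRCh37). Its TPC1 levels, in libraries 1 and 3 in turn, were 0.515 and 0.621 CPM with DMSO, 2.06 and 1.93 with GSK2830371, 0.909 and 0.476 with nutlin, and 10.8 and 9.05 with the combination. Nutlin alone overlapped DMSO, GSK2830371 alone lay above it, and the combination lay above all of these. Relative to DMSO the differences were 0.17 ± 0.317 for nutlin, 1.72 ± 0.267 for GSK2830371 and 4.14 ± 0.245 for the combination (log2, SE).

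K1 cells held far more RAB39B before treatment. Replicates 1 and 2 had 6.37 and 7.37 CPM with DMSO, 6.53 and 6.45 with GSK2830371, 8.07 and 5.21 with nutlin, and 13.4 and 12.97 with the combination. Only the combination stood apart from DMSO, and its libraries overlapped no other group. RAB39B rose by 0.96 ± 0.150 against nutlin (log2, SE; adjusted p = 0.0013, edgeR), by 0.91 ± 0.146 against DMSO (adjusted p = 0.000198) and by 0.99 ± 0.150 against GSK2830371 (adjusted p = 0.000158). Neither drug alone moved it past the thresholds (nutlin -0.05 ± 0.159 and GSK2830371 -0.08 ± 0.159). Its K1 interaction was 1.04 ± 0.219 (adjusted p = 0.0156, edgeR). This last call was lost without DMSO replicate 2, nutlin replicate 2 or combination replicate 2, at 0.93, 0.76 and 1.07, with adjusted p of 0.0558, 0.0769 and 0.0682.

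RRAD lies on chromosome 16 (66955588 to 66959438, minus strand, GRCh37). In TPC1 it had 1.14 and 1.55 CPM with DMSO, 0.538 and 0.509 with GSK2830371, 48.0 and 48.9 with nutlin, and 94.1 and 131 with the combination. No 2 treatments overlapped, with GSK2830371 lowest and the combination highest. Most of the rise came with nutlin, at 5.16 ± 0.204 above DMSO, while GSK2830371 alone stood at -1.47 ± 0.300 and the combination at 6.39 ± 0.209. Thus in these TPC1 libraries GSK2830371 went with less RRAD in the absence of nutlin and with more in its presence. The lower level rests on 17 and 39 counts against 42 and 112 with DMSO. With single libraries left out, that difference ran from -1.63 to -1.17.

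The K1 order was similar on a lower scale. RRAD had 0.910 and 0.727 CPM with DMSO, 0.694 and 0.761 with GSK2830371, 6.51 and 7.49 with nutlin, and 9.42 and 10.6 with the combination. GSK2830371 overlapped DMSO, and the combination lay above nutlin. RRAD rose by 3.11 ± 0.178 with nutlin (adjusted p = 2.25e-08, edgeR) and by 3.58 ± 0.170 with the combination against DMSO (adjusted p = 2.13e-09). The combination against nutlin gave 0.47 ± 0.123 with an adjusted p of 0.0244 in edgeR, which is under the fold threshold. Its K1 interaction of 0.63 ± 0.299 had a 95% interval of -0.01 to 1.28 and did not pass (adjusted p = 0.223, edgeR).

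LGR5 lies on chromosome 12 (71833578 to 71980090, plus strand, GRCh37) and overlaps TSPAN8 on the other strand, which had 0 counts in TPC1. In TPC1, LGR5 had 2.82 and 2.14 CPM with DMSO, 1.27 and 1.11 with GSK2830371, 0.195 and 0.338 with nutlin, and 0 and 0.0159 with the combination. The 4 treatments did not overlap, and both single drugs lay below DMSO. The combination libraries held 0 and 1 counts, against 6 and 22 with nutlin. From these summed counts LGR5 was 29.1-fold lower in the combination than in nutlin, with an exact 95% counting interval of 4.81 to 1191, and 236-fold lower than in DMSO (42.0 to 9366). These intervals cover counting error only, and a fitted fold change at so few counts depends on the prior count added.

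In K1, where LGR5 was well expressed, its fall was smaller and could be measured. K1 libraries had 38.2 and 34.8 CPM with DMSO, 28.7 and 31.6 with GSK2830371, 24.6 and 19.7 with nutlin, and 15.3 and 14.2 with the combination. No 2 treatments overlapped, and the order from high to low was the same as in TPC1. LGR5 fell by 0.71 ± 0.0955 with nutlin (log2, SE; adjusted p = 7.41e-05, edgeR), and by 1.34 ± 0.0991 with the combination against DMSO (adjusted p = 1.40e-07). Against nutlin the combination fell by 0.63 ± 0.103 (adjusted p = 0.00183), and against GSK2830371 by 1.07 ± 0.101 (adjusted p = 2.29e-06). The call against nutlin was lost without nutlin replicate 1 (-0.47), without combination replicate 2 (-0.56) or with scaling by library size alone (-0.58), each under the fold threshold. The nutlin call was lost without nutlin replicate 2 (-0.57). GSK2830371 alone gave -0.27 ± 0.0931 (adjusted p = 0.0612, edgeR), and the interaction gave -0.36, with an adjusted p of 0.136 in edgeR.

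KLHL14 lies on chromosome 18 (30252636 to 30352986, minus strand, GRCh37). TPC1 libraries had 10.2 and 9.77 CPM with DMSO, 4.31 and 5.19 with GSK2830371, 6.79 and 6.86 with nutlin, and 0.597 and 0.700 with the combination. No 2 treatments overlapped, each single drug lay below DMSO, and the combination was far below both. On the log2 scale the differences from DMSO were -1.10 ± 0.129 for GSK2830371, -0.51 ± 0.127 for nutlin and -3.86 ± 0.165 for the combination.

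KLHL14 was scarce in K1. Its K1 libraries had 0.654 and 0.511 CPM with DMSO, 0.284 and 0.694 with GSK2830371, 0.173 and 0.518 with nutlin, and 0.0628 and 0.279 with the combination, from 2 to 23 counts each. The combination overlapped nutlin and lay below DMSO and GSK2830371. Its difference from nutlin was -1.08 ± 0.730 (adjusted p = 0.391, edgeR). The 95% interval of -2.65 to 0.50 included 0, so a fall and no change could not be told apart. Against DMSO it fell by 1.77 ± 0.644 (adjusted p = 0.0396, edgeR), a call lost without DMSO replicate 1 (-1.58), DMSO replicate 2 (-1.94) or combination replicate 1 (-1.09), in DESeq2 (adjusted p = 0.0661) and with library size alone (adjusted p = 0.0529). Without combination replicate 2 it fell by 3.16. The interaction was -0.82 ± 0.900 and did not pass (adjusted p = 0.633, edgeR).

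KCNJ16 lies on chromosome 17 (68049570 to 68131749, plus strand, GRCh37). Of the 4 genes lowest in the combination, it was the only one higher with nutlin than with DMSO in TPC1. Its libraries had 10.5 and 9.40 CPM with DMSO, 8.84 and 8.40 with GSK2830371, 16.2 and 17.9 with nutlin, and 2.52 and 3.01 with the combination. No 2 treatments overlapped, with nutlin highest and the combination lowest. Differences from DMSO were 0.82 ± 0.115 for nutlin, -0.26 ± 0.117 for GSK2830371 and -1.77 ± 0.129 for the combination (log2, SE).

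The RefSeq promoter table (GRCh38.p14) held 1 of the 6 genes, KCNJ16, and its promoter is shown because this gene went up with nutlin and down once GSK2830371 was added. The stretch spans 250 bases before to 50 after the RefSeq start, 5′ to 3′ on the plus strand, and its 300 bases matched GRCh37 exactly once, at chr17:68071116-68071415. This start lies inside the gene as annotated on GRCh37, so transcripts from other starts also enter the counts. Capitals mark the letters TGAGTCA, which match the AP-1 motif TGANTCA, and the letters TGACG of the cyclic AMP response element.
KCNJ16: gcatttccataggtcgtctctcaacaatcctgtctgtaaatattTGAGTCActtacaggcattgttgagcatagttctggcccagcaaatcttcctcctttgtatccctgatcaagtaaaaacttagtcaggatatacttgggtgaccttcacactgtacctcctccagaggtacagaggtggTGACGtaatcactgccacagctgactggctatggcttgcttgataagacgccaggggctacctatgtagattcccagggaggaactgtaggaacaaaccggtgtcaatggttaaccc
The AP-1 letters lay 206 to 200 bases and the TGACG letters 67 to 63 bases before the start. Searched on both strands, TGANTCA was in 7.73% and TGACG in 24.5% of 34796 RefSeq promoters of this length. This window held no match to the p53 half-site (6.65% of promoters), TGACGTCA (1.84%), TGATGNAA (3.63%), CTTTGAT (2.62%), TTTGAA (15.2%), CCAAT (34.6%), GGGCGG (44.9%), TATAAA (11.6%) or CACGTG (7.2%). TGACG is part of TGACGTCA, so these searches overlap, and a match is only a match of letters. The window had a GC content of 47% and 4 CpG dinucleotides, against medians of 58.7% and 14 over all promoters.

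In K1, KCNJ16 was close to the lower limit of counting. The libraries had 0.682 and 0.323 CPM with DMSO, 0.158 and 0.265 with GSK2830371, 0.242 and 0.366 with nutlin, and 0.126 and 0.279 with the combination, from 4 to 24 counts each. The combination overlapped nutlin and GSK2830371 and lay below DMSO. Nutlin gave -0.68 ± 0.498 against DMSO (95% interval -1.75 to 0.39; adjusted p = 0.347, edgeR) and the combination -0.63 ± 0.612 against nutlin (-1.95 to 0.69; adjusted p = 0.573). The interaction was 0.59 ± 0.840 (-1.22 to 2.40) and did not pass (adjusted p = 0.725, edgeR), while in TPC1 it was -2.33. The combination against DMSO, at -1.31 ± 0.539, missed the threshold (adjusted p = 0.0647, edgeR) and passed it without DMSO replicate 2 (-1.76, adjusted p = 0.0235).

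GPRIN3 lies on chromosome 4 (90157534 to 90228951, minus strand, GRCh37). TPC1 libraries had 7.29 and 3.78 CPM with DMSO, 7.28 and 4.32 with GSK2830371, 4.16 and 3.01 with nutlin, and 0.678 and 0.207 with the combination. The combination lay below every other library, while both single drugs overlapped DMSO. Library 1 stood above library 3 in each treatment, by 1.38- to 3.28-fold, which held in all 4 treatments for none of the other 5 genes. The difference from nutlin was -3.13 ± 0.546, or -4.03 without combination library 1 and -2.36 without combination library 3.

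K1 showed GPRIN3 at a similar starting level and with closer replicates. There it had 7.90 and 6.86 CPM with DMSO, 6.46 and 6.84 with GSK2830371, 5.78 and 6.27 with nutlin, and 3.67 and 4.59 with the combination. The combination lay below all other libraries, and neither single drug passed the thresholds. GPRIN3 fell by 0.87 ± 0.136 against DMSO (log2, SE; adjusted p = 0.000155, edgeR), by 0.73 ± 0.140 against GSK2830371 (adjusted p = 0.000963) and by 0.59 ± 0.142 against nutlin (adjusted p = 0.0158). The call against nutlin was lost without nutlin replicate 2 (-0.51), without combination replicate 1 (-0.46) or with library size alone (-0.55), and that against GSK2830371 without combination replicate 1 (-0.58). The interaction was -0.45 and did not pass (adjusted p = 0.172, edgeR).

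**Figure D2:**
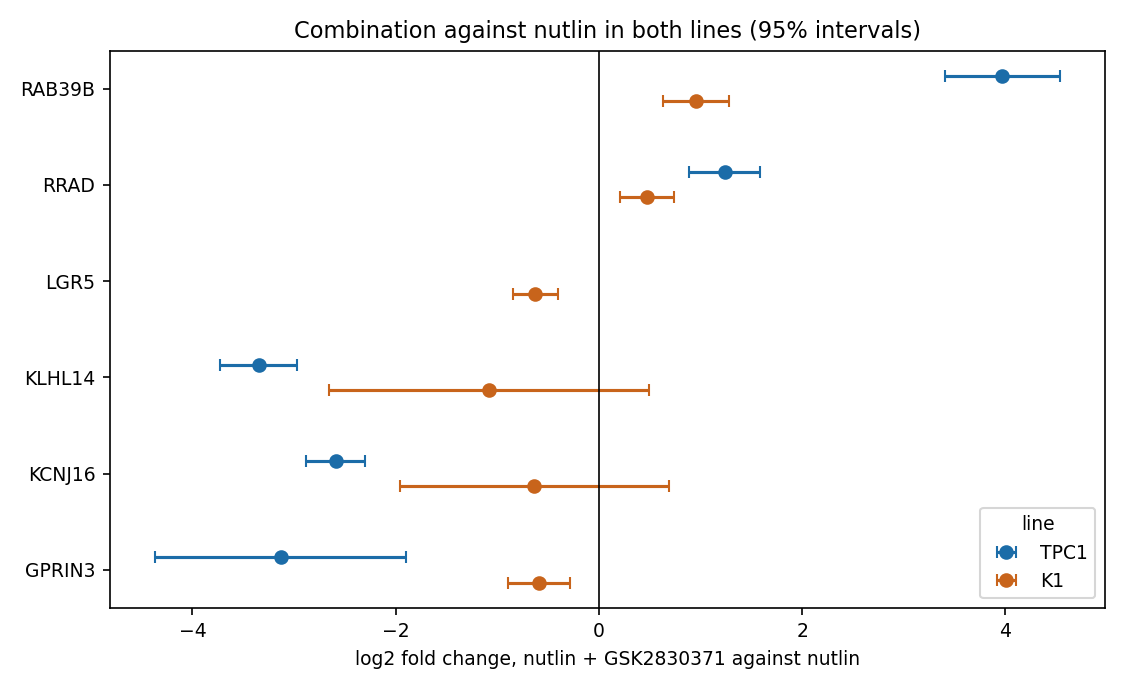
Log2 fold change of the combination against nutlin for the 6 genes in TPC1 (blue) and K1 (orange), with 95% intervals derived from the edgeR fit. LGR5 in TPC1 is not drawn because its combination libraries held 0 and 1 counts. The K1 values run from -1.08 (KLHL14) to 0.96 (RAB39B), and the K1 intervals of KLHL14 and KCNJ16 include 0.

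Across the 6 genes in K1, the sign of the difference between combination and nutlin was that of TPC1 in each, and 3 passed the thresholds by edgeR (RAB39B higher, LGR5 and GPRIN3 lower), where 2.68% of all K1 genes did. DESeq2 also called 3, and scaling by library size alone left 1, RAB39B. RAB39B held its call without each library in turn, from 0.68 to 1.29 on the log2 scale. Against DMSO the combination called 5 of 6 in K1 (15.7% of all genes), with KCNJ16 the exception, and 4 in DESeq2. Against GSK2830371 it called 4 of 6 (13.1% of all genes), namely RAB39B, RRAD, LGR5 and GPRIN3. Nutlin alone called RRAD and LGR5, 2 of 6 (9.27% of all genes), and 1 of 6 passed for the interaction (2.44% of all genes).

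GSK2830371 alone called 0 of 6 in K1 by edgeR and 0 by DESeq2 (2.23% of all genes by edgeR), with 2 at an unadjusted p under 0.05, LGR5 and KCNJ16. In TPC1, where its libraries entered the rule and the count is only a description, 3 of 6 passed (1.4% of all genes), and this count was 0 without GSK2830371 library 1 and 1 without any other single library of DMSO or GSK2830371. The difference between the lines was not tested for these genes, because their TPC1 values were used to choose them.

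**Figure D3:**
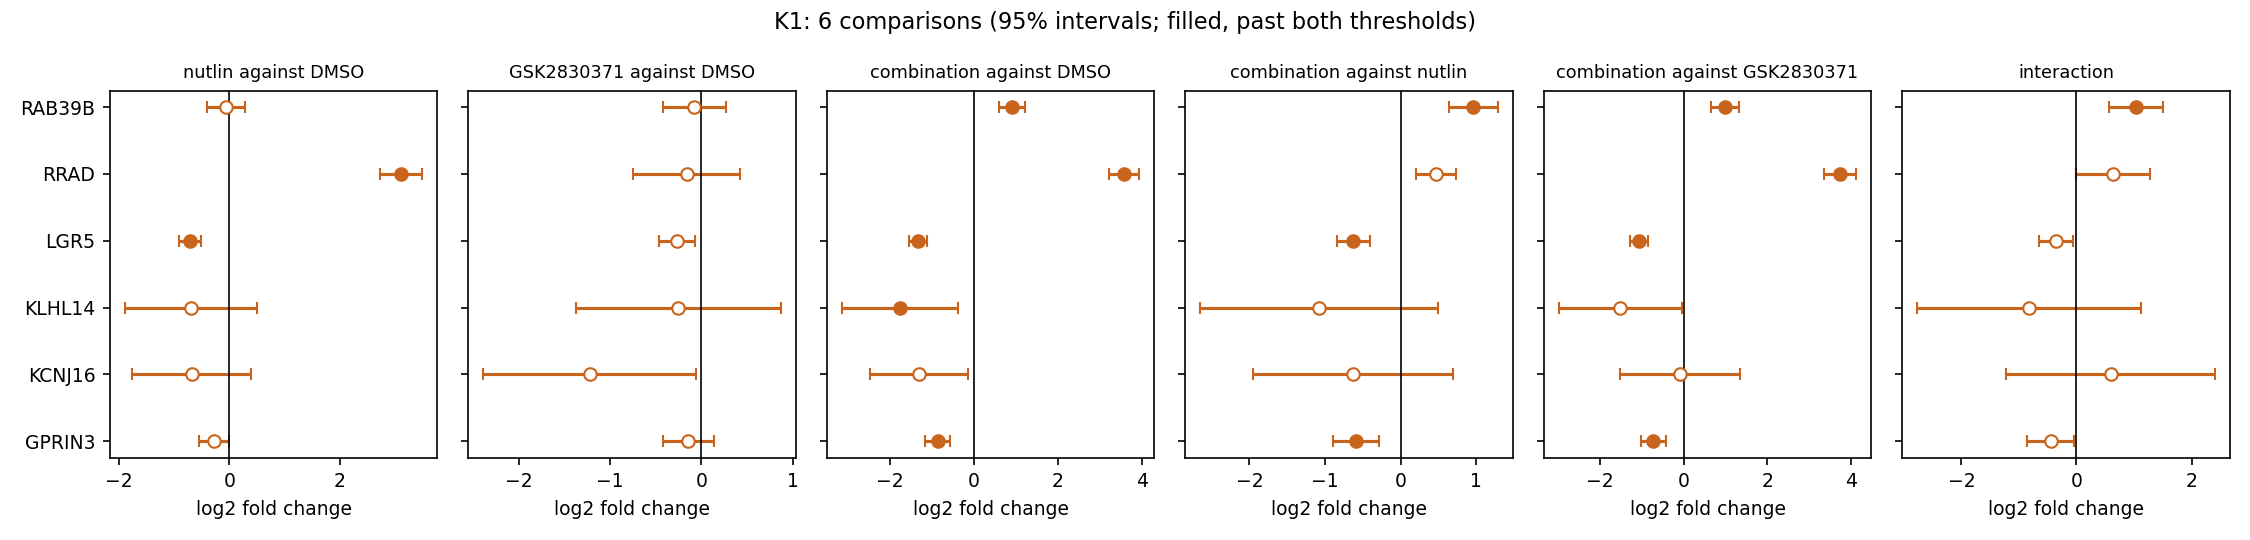
Log2 fold changes of the 6 genes in K1 for 6 comparisons, with 95% intervals derived from the edgeR fit. Filled points passed both thresholds and open points did not. GSK2830371 alone has no filled point, and the combination against DMSO has 5.

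The lines began from different levels of these genes. In DMSO, RAB39B was 12.1-fold and LGR5 14.7-fold higher in K1 than in TPC1, whereas KLHL14 was 17.1-fold and KCNJ16 19.8-fold higher in TPC1, with no overlap of libraries. GPRIN3 overlapped between the lines in DMSO, and RRAD was 1.64-fold higher in TPC1. With the combination RAB39B came to 9.92 CPM on average in TPC1 and 13.2 in K1, and RRAD was 11.2-fold higher in TPC1. These ratios compare CPM within a gene and carry no test.

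Levels of different genes were compared per length, as CPM per kilobase of exon in GENCODE, whose models can differ from those the reads were counted on. In DMSO-treated TPC1 cells the order was KLHL14 (2.02 ± 0.0598, SD, n = 2), KCNJ16 (1.57 ± 0.122), RRAD (0.847 ± 0.182), LGR5 (0.475 ± 0.0920), GPRIN3 (0.369 ± 0.165) and RAB39B (0.166 ± 0.0220), where LGR5 and GPRIN3 overlapped. After the combination it was RRAD (71.0 ± 16.5), RAB39B (2.91 ± 0.360), KCNJ16 (0.436 ± 0.0541), KLHL14 (0.131 ± 0.0148), GPRIN3 (0.0295 ± 0.0222) and LGR5, with no overlap between neighbours. RAB39B thus went from the last to the second place of the 6 in TPC1. In K1 the order in DMSO was LGR5 (6.99 ± 0.451), RAB39B (2.01 ± 0.208), RRAD (0.516 ± 0.0818), GPRIN3 (0.492 ± 0.0491), KLHL14 (0.118 ± 0.0204) and KCNJ16 (0.0793 ± 0.0401), with overlap of RRAD with GPRIN3 and of KLHL14 with KCNJ16. The combination placed RRAD first in K1 (6.33 ± 0.546), above RAB39B (3.87 ± 0.0965) and LGR5 (2.83 ± 0.146).

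Families and partners of the 6 genes were followed in lists of 95 genes, of which 63 were tested in TPC1 and 66 in K1. A difference between combination and nutlin need not be particular to the combination. For the interaction 2 listed genes were called higher and 5 lower in TPC1 (edgeR; 6.32% of all genes called). In TPC1, 10 were called higher and 7 lower with the combination against nutlin (edgeR; 12.1% of all genes called), with a median log2 change of 0.16 beside 0.01 over all genes, and 10 were called in all without nutlin library 3. In K1 the same comparison called 0 of 66 in edgeR (2.68% of all genes called) and 0 in DESeq2, while 18 had an unadjusted p under 0.05 and 8 an adjusted p under 0.05 with less than a 1.5-fold change.

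Of 5 relatives and partners of RAB39B, 2 rose in TPC1 with the combination against nutlin. C9orf72, a subunit of the complex RAB39B works with, rose by 0.79 ± 0.144 on the log2 scale (adjusted p = 0.00444, edgeR), and in K1 it gave 0.55 ± 0.0865 (adjusted p = 0.00129), under the fold threshold. WDR41 of the same complex was the other. SMCR8, its remaining subunit, gave 0.31 ± 0.207 (adjusted p = 0.304, edgeR). RAB39A, the closest paralog, stood at 0.244 CPM with nutlin and 0.476 with the combination in TPC1 and did not pass (0.91 ± 0.384, adjusted p = 0.115, edgeR).

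Among 6 tested genes of the RGK GTPases and calcium channel subunits, RRAD's family, 2 fell and 0 rose in TPC1. GEM, the closest expressed relative of RRAD, had 44.3 ± 0.486 CPM with nutlin and 19.3 ± 5.68 with the combination (SD, n = 2), and fell by 1.19 ± 0.153 (adjusted p = 0.000809, edgeR), opposite to RRAD. CACNB3, a beta subunit of the kind RGK proteins bind, fell by 0.61 ± 0.0807 (adjusted p = 0.000921, edgeR). REM2 gave 0.11 ± 0.603 (adjusted p = 0.921, edgeR), and REM1 had no count.

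Of 11 tested genes of the R-spondin and WNT feedback list, 1 rose and 3 fell in TPC1. LGR4, the paralog of LGR5 with which it shares ligands, fell by 0.81 ± 0.101 (adjusted p = 0.000701, edgeR), and LGR6, the remaining paralog, rose by 1.45 ± 0.364 (adjusted p = 0.0184). TNFRSF19, a receptor of the tumor necrosis factor family, and TCF7, a WNT-responsive transcription factor, fell by 1.85 ± 0.226 and 0.89 ± 0.122 (adjusted p = 0.000641 and 0.00116, edgeR). TNFRSF19 was also lower with GSK2830371 alone (2.20 CPM on average) than with DMSO (7.19), and its interaction was -0.08 ± 0.303. In K1 TCF7 gave -0.55 ± 0.0605 (adjusted p = 0.000119, edgeR), under the fold threshold. AXIN2 and ZNRF3, negative feedback genes of WNT signaling, gave -0.51 ± 0.443 and 0.29 ± 0.160 in TPC1 and did not pass (adjusted p = 0.437 and 0.219, edgeR). RNF43 was not tested in TPC1, where it had at most 4 counts in a library.

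KLHL14 belongs to a list of 29 tested BTB-Kelch and CUL3 genes, of which 4 rose and 2 fell in TPC1. KLHL4 fell by 1.64 ± 0.288 and KLHL13 by 0.99 ± 0.140 (adjusted p = 0.00369 and 0.0013, edgeR). KLHL30, KLHL15 and KLHL3 rose by 1.47 ± 0.333, 1.42 ± 0.192 and 0.84 ± 0.226 (adjusted p = 0.0119, 0.00109 and 0.024, edgeR). CUL3 itself gave 0.02 ± 0.0897, and TOR1A, which encodes the torsin that KLHL14 binds, gave 0.44 ± 0.0959 (adjusted p = 0.0101, edgeR), under the fold threshold.

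Of 6 tested inward rectifier channels 2 rose and 0 fell in TPC1, opposite to KCNJ16. They were KCNJ11, the pore of the ATP-sensitive potassium channel (1.28 ± 0.293, adjusted p = 0.0123, edgeR), and KCNJ12 (1.38 ± 0.219, adjusted p = 0.00227), whose reads can be shared with its near-identical copy KCNJ18. KCNJ10 and KCNJ15, the partners of KCNJ16, were not tested in either line, with at most 1 and 6 counts in a library. Of 6 tested GPRIN and G protein alpha genes 1 rose and 0 fell, namely GNAZ (0.97 ± 0.190, adjusted p = 0.00613, edgeR). GNAZ averaged 3.83 CPM with GSK2830371 alone and 1.84 with DMSO, and its interaction was -0.06 ± 0.258. GPRIN1, the expressed paralog of GPRIN3, had 3.55 CPM with nutlin and 3.38 with the combination and gave -0.07 ± 0.152 (adjusted p = 0.783, edgeR).

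**Figure D4:**
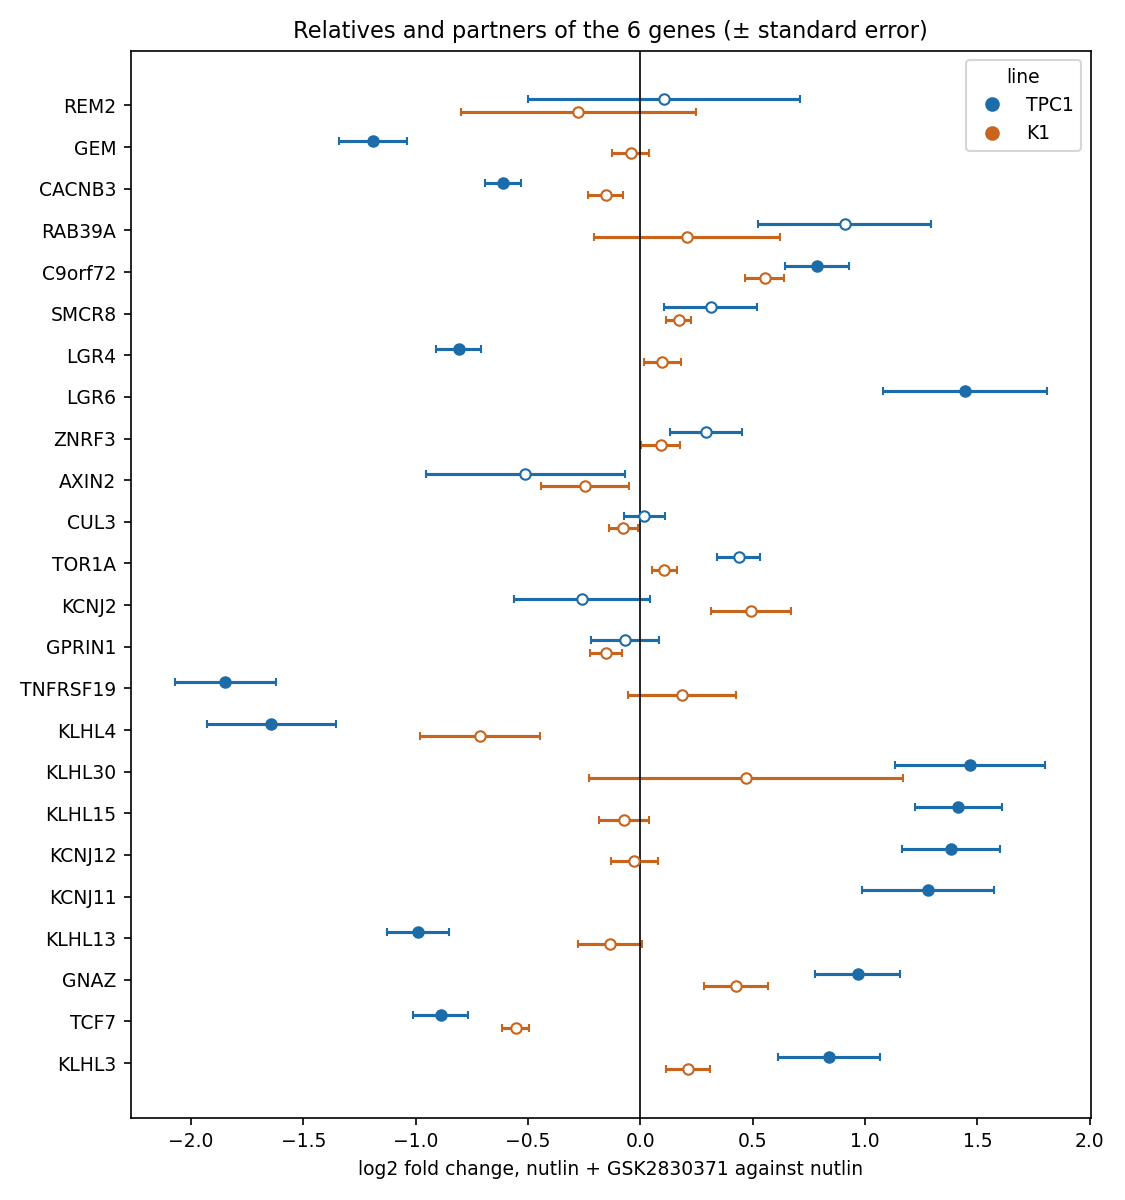
Log2 fold change of the combination against nutlin for named relatives and partners of the 6 genes in TPC1 (blue) and K1 (orange), with standard errors; filled points passed both thresholds and open points did not. TPC1 values run from -1.85 (TNFRSF19) to 1.47 (KLHL30), and K1 has no filled point.

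The genes nearest to the 6 on their chromosomes were also followed. Unlike the 6 they were not chosen for a large change, so their sizes of change cannot be compared with those of the 6. Of 12 nearest protein-coding neighbours 9 were tested, and in TPC1 the combination against nutlin called 1 higher and 1 lower in edgeR (12.1% of all genes called). MAP2K6, 499564 bases from KCNJ16, fell by 0.82 ± 0.150 (adjusted p = 0.00451, edgeR), and TIGD2, 121482 bases from GPRIN3, rose by 0.63 ± 0.120 (adjusted p = 0.00538). KCNJ2, only 33065 bases from KCNJ16, gave -0.26 ± 0.303 (adjusted p = 0.577, edgeR). CDH16, 2768 bases from RRAD, gave -0.86 ± 0.388 (adjusted p = 0.138, edgeR). RAB39B rose without its neighbours VBP1 and CLIC2 passing the thresholds (0.06 ± 0.124 and 0.09 ± 0.508). CLIC2 was scarce in TPC1, at 0.203 CPM with nutlin and 0.233 with the combination.

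Over the 8 TPC1 libraries, which are 4 treatments with 2 libraries each, some genes followed the pattern of a member closely. The closest to KLHL14 by Pearson correlation of log2 CPM was the cadherin gene CDH6 (0.998), which went from 21.5 CPM on average with DMSO to 12.96 with nutlin and 0.477 with the combination. In K1 CDH6 also fell, by 1.51 with the combination against nutlin (adjusted p = 0.000238, edgeR). The p53-induced death domain gene PIDD1 (0.999) was closest to RRAD, and GNAI3 (0.998), a G protein alpha subunit, to LGR5. KIAA1522 (0.998) was closest to GPRIN3 and FAM86HP (0.994) to RAB39B. Unlike CDH6, none of these passed both thresholds in K1 for the combination against nutlin. There PIDD1 gave -0.01, GNAI3 -0.13 and FAM86HP 0.62 (adjusted p = 0.946, 0.2 and 0.114, edgeR). KIAA1522 gave -0.36 (adjusted p = 0.00183, edgeR), under the fold threshold. Likeness of pattern did not mean likeness of size, since in TPC1 PIDD1 differed by 0.31 and GNAI3 by -0.41 between combination and nutlin on the log2 scale. Among the 6 genes themselves, RAB39B and KLHL14 had the strongest opposite pattern (-0.973), and KLHL14 was about equally close to KCNJ16 and to LGR5 (0.904 for both). These correlations describe genes that were chosen for their pattern in the same libraries, and they depend on the measure of likeness.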

How the data were processed

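Poly(A)-enriched, strand-specific RNA was sequenced by the authors, aligned to GRCh37 with TopHat2 2.0.13, filtered for mapping quality and counted per gene symbol with HTSeq 0.6.1. The deposited values are raw read counts. Of 25369 genes, 4539 had no count. All columns were used. TPC1 columns numbered 3 were given a treatment but no sample label. The study describes its replicates in general as independently prepared, while the labels do not name the culture behind each library. P-values measure the spread between these libraries.

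The 4 groups of each line were fitted together over the genes that exceeded 0.1 CPM in 2 or more of its libraries, in edgeR 4.0.16 (R 4.3.3) with TMM scaling, at 4 residual degrees of freedom. Alternatives were other scalings and filters, DESeq2 1.42.0, the compared groups alone, a replicate block and each library left out. The fit was tested on simulated data.

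The 6 genes, their families and the motifs were chosen with earlier results of these data known. Named relatives were the closest family members and partners, and the 10 listed genes with the largest called change between combination and nutlin in TPC1 and at least 1 CPM in the higher group; WDR41 was named after its values were seen. For likeness, the closest genes of 12711 with at least 1 CPM in a TPC1 group were taken. Positions and exon lengths come from GENCODE on GRCh37. The gene whose pattern was closest to KCNJ16 is not reported here.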

Additional observations from a re-analysis of the deposited data

Results flagged for a closer look

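The 4 named relatives below had TPC1 and K1 libraries that lay on opposite sides of the compared group, without overlap within a line, and whether the lines differ was not tested. LGR4 in the combination differed from nutlin by -0.81 in TPC1 and 0.10 in K1 on the log2 scale, from DMSO by -0.30 and 0.43, and from GSK2830371 by -0.27 and 0.50. GEM in the combination differed from GSK2830371 by -0.30 in TPC1 and 0.17 in K1. KLHL15 in the combination differed from DMSO by 1.00 in TPC1 and -0.55 in K1, and from GSK2830371 by 1.09 and -0.28. WDR41 with GSK2830371 alone differed from DMSO by 0.256 in TPC1 and -0.145 in K1. None of these 4 genes belongs to the 6, whose signs between combination and nutlin were the same in both lines. In other comparisons the signs of the 6 were not always the same, KCNJ16 being an example. Its nutlin difference was 0.82 in TPC1 and -0.68 in K1, and its interaction -2.33 and 0.59. The K1 intervals of both, -1.75 to 0.39 and -1.22 to 2.40, held values of either sign, so these K1 signs stay unresolved.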

How the results depend on the processing

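The signs of the 6 genes between combination and nutlin held in all 15 alternatives in both lines. The alternatives reuse the same libraries, and the K1 intervals of KLHL14 and KCNJ16 included 0, so their K1 signs stay unresolved. Over the alternatives these 2 genes ran from -2.46 to -0.04 and from -1.30 to -0.20 in K1. In K1 the number called for this comparison was 1 in place of 3 with library size alone. Listed relatives called there in K1 numbered 2 with library size alone, 1 without a filter, 1 with filterByExpr and 1 with the compared groups fitted alone, in place of 0, and 0 to 2 with single libraries left out; in TPC1 leaving out single libraries gave 10 to 17 in place of 17. The lone library left in an arm was assumed to vary like the other groups. Leaving out single libraries also changed the number of members called. For GSK2830371 in TPC1 (3 with all libraries) the number went down or up, since LGR5 was added without combination library 1 or 3. For nutlin in K1 (2 with all) and the K1 interaction (1 with all) it went down or stayed. Over all genes, the TPC1 count for GSK2830371 was 214, 377 without a filter, 106 with the compared groups alone and 22 to 253 with single libraries left out. Leaving out single libraries gave 345 to 1147 for the TPC1 interaction (965 with all), 177 to 638 for GSK2830371 in K1 (355), 227 to 447 for combination against nutlin in K1 (426) and 20 to 692 for the K1 interaction (388). Library size alone moved the median of all TPC1 genes between combination and GSK2830371 from -0.00316 to -0.106.

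Replicate numbers went together in TPC1, where the differences between numbers 1 and 3 correlated at 0.447 to 0.616 across 12308 genes, and not in K1 (-0.321 to 0.335). The labels give the numbers no meaning. TPC1 libraries numbered 3 held 62853375 to 76648552 counts and those numbered 1 held 30789887 to 36896529, so number and depth cannot be told apart. The p-values given for relatives and neighbours come from the fit without a replicate block. With the replicate block, 4 members passed in TPC1 for GSK2830371 and 6 for the interaction, LGR5 included, against 3 and 5 without it, and over all genes 480 and 1573 passed against 214 and 965. The block left the K1 counts of members at 2, 0, 5, 3, 4 and 1 and added no other call for them.

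Of the 3 genes most like each member, Spearman correlation kept 0 for RAB39B, RRAD and LGR5 and 1 for KLHL14, KCNJ16 and GPRIN3, and a prior count of 2 kept 0 for LGR5. Depth limits KLHL14 and KCNJ16 in K1 and LGR5 in the TPC1 combination.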

Other observations

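Several relatives also moved with nutlin alone. Of GPRIN1, AXIN2, GNAZ and KCNJ12, the combination was called apart from nutlin in TPC1 for GNAZ and KCNJ12. Other named relatives, GEM, TCF7 and KLHL30 among them, were also called for both comparisons in TPC1. In TPC1 nutlin called 14 listed genes higher and 13 lower of 63 tested (35.5% of all genes called, edgeR), and in K1 2 higher and 5 lower of 66 (9.27% of all genes). GPRIN1, the paralog of GPRIN3, fell by 2.76 ± 0.137 in TPC1 and by 1.12 ± 0.0672 in K1 on the log2 scale (adjusted p = 3.40e-07 and 3.59e-08, edgeR), and its mean level in TPC1 went from 24.4 to 3.55 CPM. AXIN2, a WNT feedback gene, fell by 1.90 ± 0.360 in TPC1 and by 0.79 ± 0.172 in K1 (adjusted p = 0.00163 and 0.00327, edgeR). GNAZ, a G protein alpha subunit, fell by 0.69 ± 0.192 in TPC1 and by 0.93 ± 0.134 in K1 (adjusted p = 0.0127 and 0.000137, edgeR). KCNJ12 rose in both lines, by 1.87 ± 0.269 in TPC1 and by 0.70 ± 0.108 in K1 (adjusted p = 0.000308 and 0.000243, edgeR).

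In TPC1 the nutlin and combination libraries of KLHL30, a BTB-Kelch gene, averaged 1.10 and 3.01 CPM, while DMSO and GSK2830371 averaged 0.0276 and 0.0605. In K1 it had at most 5 counts in a library.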
